A study of Mus musculus with 42 samples.

Results

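The genes described here encode the fatty acid desaturases Scd1, Scd2, Scd3, Scd4, Fads1 and Fads2 and the elongases Elovl2 and Elovl5 of the mouse. They were taken by gene name from a table of read counts, and all 8 were found among 54532 listed genes. Female C57BL/6 mice, of the substrain C57BL/6NHsd in the study's methods, were placed at 3 weeks of age on AIN93G, the standard diet with 16% of energy from fat, or on a high-fat diet (HFD) with 45% of energy from fat, and were killed after 3 weeks. Soybean oil was the fat of both diets. In the study's methods the HFD also gave a smaller share of energy from carbohydrate. More fat and less carbohydrate therefore cannot be told apart. Tissue labelled liver was sequenced from 3 mice per diet every 4 h from zeitgeber time (ZT) 0, when lights go on, to ZT 24, which gave 42 libraries. The labels name no mutation, transgene or agent besides the diet, and all mice were of 1 sex and 1 strain.

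Stearoyl-CoA desaturases place a double bond in saturated fatty acids and so make oleic and palmitoleic acid for triacylglycerols, phospholipids and cholesteryl esters. Scd1 is the main isoform of liver and of adipose tissue, Scd2 is best known from brain and young animals, Scd3 from skin and the Harderian gland, and Scd4 from heart. Polyunsaturated fatty acids (PUFA) are built on another route from linoleic and alpha-linolenic acid of the diet. Fads2 is the delta-6 desaturase of its first step, Elovl5 lengthens the products, Fads1 is the delta-5 desaturase that yields arachidonic and eicosapentaenoic acid, and Elovl2 lengthens those toward docosahexaenoic acid. Transcription of many of these genes is known to be raised by the sterol regulatory element-binding protein SREBP-1c and restrained by dietary PUFA.

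The libraries were of 2 kinds. Albumin (Alb) was over 10000 CPM, counts per 1000000 counts of a library, in 32 libraries, here called liver, with 66434 to 111995 CPM. In the other 10 it was 18.7 to 81.0 CPM, all 10 markers of adipocytes were over 1 CPM in every library, and adiponectin (Adipoq) was 1455 to 2984 CPM. These 10 libraries go against their label and are called adipocyte-rich. They were all 3 AIN93G libraries of ZT 16, all 3 of ZT 20, 2 AIN93G libraries of ZT 24 and 2 HFD libraries of ZT 24. On AIN93G, late time and kind of library therefore cannot be told apart, and diets were compared in liver only at the 4 time points up to ZT 12. At ZT 12 the labels place replicate 2 of AIN93G and replicate 3 of the HFD in the light phase and the other 4 libraries in the dark phase. Replicate 3 of AIN93G at ZT 4 held 5.01 CPM of Adipoq and 24.2 CPM of the brown adipocyte gene Ucp1. Total counts were 14592481 to 19815356 in liver and 15687740 to 21368409 in adipocyte-rich libraries.

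The Scd genes lie together on chromosome 19 (mm10). Scd3 (ENSMUSG00000025202) spans 44203288 to 44244016, Scd2 (ENSMUSG00000025203) spans 44293676 to 44306864, Scd4 (ENSMUSG00000050195) spans 44333092 to 44346743 and, on the minus strand, Scd1 (ENSMUSG00000037071) spans 44394451 to 44407709. Fads2 (ENSMUSG00000024665, 10064164 to 10101503, minus strand) and Fads1 (ENSMUSG00000010663, 10182888 to 10196870, plus strand) are neighbours elsewhere on chromosome 19. Elovl2 (ENSMUSG00000021364) is on chromosome 13 at 41182381 to 41220405 and Elovl5 (ENSMUSG00000032349) on chromosome 9 at 77917364 to 77984519.

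The coding sequences of the Scd genes are close copies of each other, which bears on how reads were assigned. In GENCODE M21 transcripts, the coding sequence of Scd1 was 90.4% identical to that of Scd2, 91.5% to that of Scd3 and 85.2% to that of Scd4. The following stretch of 60 coding bases starts at base 442 of the Scd1 coding sequence and at base 451, 454 and 436 of the others. It is shown as a place where a read that lies within it cannot be assigned among Scd1, Scd2 and Scd4, and the capital marks the only base of Scd3 that differs.
Scd1: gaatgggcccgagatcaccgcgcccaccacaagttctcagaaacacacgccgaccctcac
Scd2: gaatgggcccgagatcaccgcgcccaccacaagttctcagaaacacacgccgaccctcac
Scd3: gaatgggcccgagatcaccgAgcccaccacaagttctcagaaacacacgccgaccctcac
Scd4: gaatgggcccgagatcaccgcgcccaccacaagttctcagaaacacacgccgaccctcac
Such stretches are few over the whole transcripts. Of all windows of 100 bases, 2.64% of Scd1, 0.896% of Scd2, 2.54% of Scd3 and 0.53% of Scd4 occurred unchanged in the transcript of another Scd gene. For windows of 50 bases these shares were 4.66%, 3.79%, 6.37% and 3.44%. Low counts of Scd3 and Scd4, and of Scd2 in liver, are therefore uncertain where Scd1 counts are high. In liver, Scd2 held 0.0535 to 0.306% of Scd counts on AIN93G and 0.083 to 1.01% on the HFD. How far reads of Scd1 entered the liver values of Scd2 was not tested.

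In liver, Scd1 held 99.0 to 99.9% of all Scd counts. Comparing genes by CPM per kilobase of the listed gene length, Scd1 had the highest median at 799.7, followed by Fads2 at 387, Elovl2 at 300.1, Fads1 at 219.7 and Elovl5 at 192, while Scd2 had 1.31. How the listed lengths were computed is not given in the sources used here. Fads2 is listed with 1508 bases and the other 7 genes with 3456 to 5453, and by CPM alone the median of Fads2 (584) was the lowest of the first 5. The ranges of neighbours in this order overlapped down to Elovl5. Scd1 was above Fads2 in 24 of 32 libraries, Fads2 above Elovl2 in 23, Elovl2 above Fads1 in 27 and Fads1 above Elovl5 in 18. Scd2 was below Elovl5 in 32 of 32. Scd3 had 11 reads and Scd4 15 reads in the 32 liver libraries together, with 0 reads of each in 24 libraries and at most 3 and 6 reads in one. A library with 0 reads leaves up to 3 reads open, so that a pattern of Scd3 or Scd4 by diet or time was not detectable at this depth. Neither reached the mean count of 25 set for a test in liver, and the other 6 genes did.

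**Figure D1:**
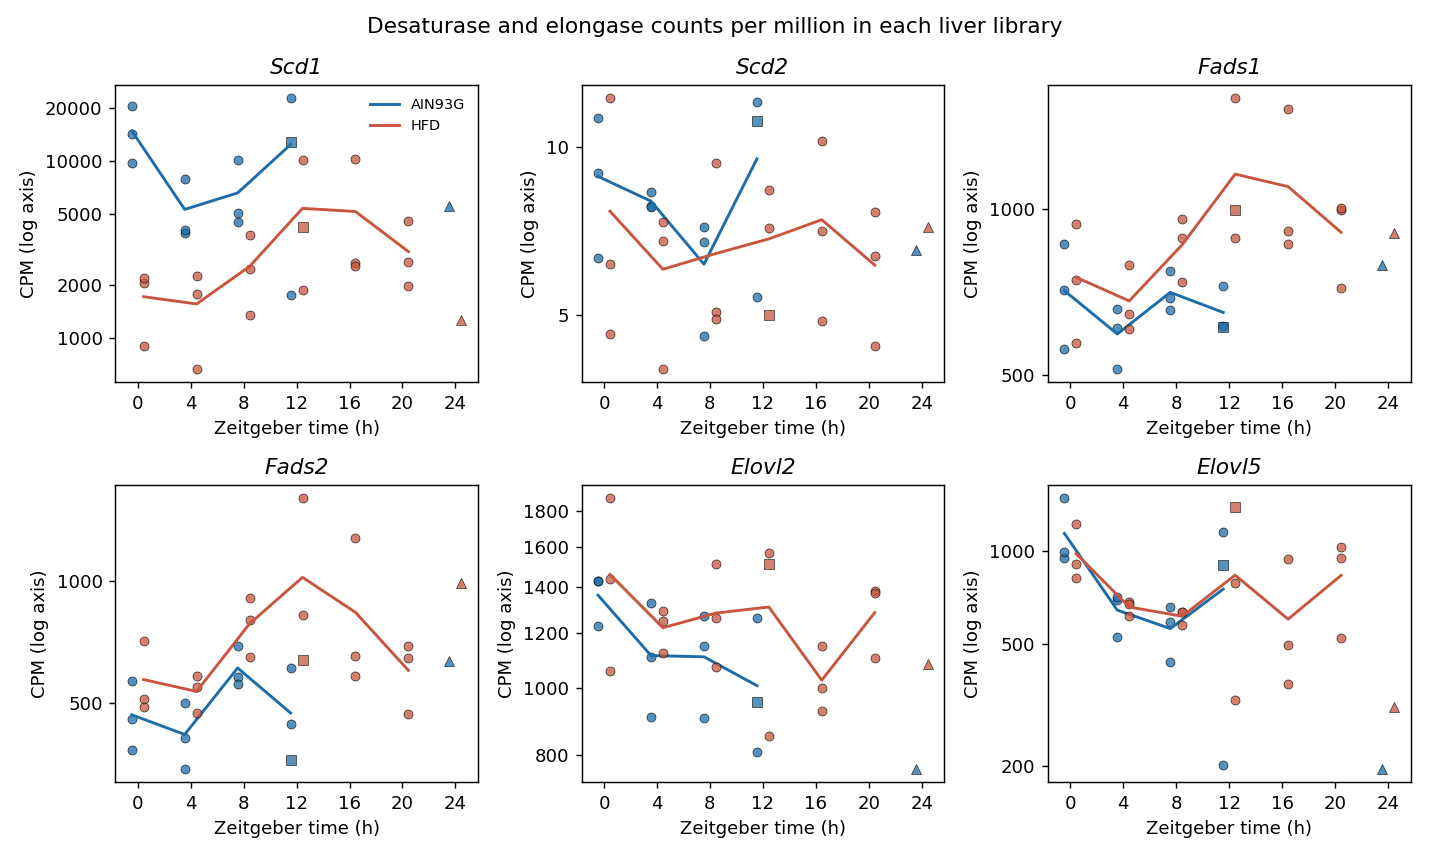
CPM (log axis, scaled by the trimmed mean of M values, TMM) of 6 genes against zeitgeber time in hours. Each point is 1 liver library, lines join group means of 3, squares are the ZT 12 libraries labelled light phase and triangles the single liver library of each diet at ZT 24. Scd1 of AIN93G lies above the HFD at ZT 0, ZT 4 and ZT 8, whereas Elovl5 overlaps between diets at each of the 4 shared time points from ZT 0 to ZT 12.

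The first comparison asked whether the diet changed these genes in liver. Scd1 was lower on the HFD. At ZT 0 it was 9769.5, 14173 and 20535 CPM in the 3 AIN93G libraries and 899, 2039 and 2193 CPM in the 3 HFD libraries. At ZT 4 the values were 3929, 4101 and 7954 CPM on AIN93G and 668, 1767 and 2235 CPM on the HFD. At ZT 8 they were 4538, 5093 and 10177 CPM on AIN93G and 1355, 2449 and 3806 CPM on the HFD. Every AIN93G library exceeded every HFD library at these 3 time points, where 13.3%, 7.59% and 13% of all genes tested did not overlap between diets in either direction. At ZT 12 the diets overlapped, with 1756, 12844 and 22576 CPM on AIN93G and 1860.0, 4238 and 10104 CPM on the HFD. The lowest value of either diet at ZT 12 came from its replicate 1, a library labelled dark phase. The highest came from replicate 3 of AIN93G and replicate 2 of the HFD, also labelled dark phase.

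Averaged over the 4 time points, Scd1 was 3.64-fold lower on the HFD (log2 fold change -1.86, SE 0.36, adjusted p = 0.0323, quasi-likelihood test of edgeR). It was the only gene of the 6 tested with an adjusted p-value under 0.05, where 12 of 12023 genes in all (0.0998%) passed and 7 (0.0582%) were lower on the HFD. DESeq2 gave Scd1 an adjusted p of 0.000123 and limma-voom 0.0511. The call of edgeR was narrow. It was lost when any 1 of 14 of the 24 libraries was left out, with adjusted p-values of 0.0518 to 0.0851 and log2 fold changes of -1.95 to -1.67. These were AIN93G replicate 1 of ZT 0, replicate 1 of ZT 4, replicate 3 of ZT 8 and replicates 2 and 3 of ZT 12, and HFD replicates 1 and 2 of ZT 0, all 3 of ZT 4, replicates 1 and 2 of ZT 8 and replicates 1 and 3 of ZT 12. Without both ZT 12 libraries labelled light phase the adjusted p was 0.106, and without all ZT 12 libraries it was 0.00515 with a log2 fold change of -2.09. Without the AIN93G library that held Ucp1 it was 0.0428. In such bulk tissue, fewer cells of a type and less RNA per cell cannot be told apart.

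By time point, in the order of ZT 0, 4, 8 and 12, the log2 fold changes of Scd1 were -3.12 (SE 0.75), -1.78 (SE 0.71), -1.37 (SE 0.71) and -1.20 (SE 0.70). The adjusted p-values were 0.329, 1.00, 0.445 and 0.694, and no gene of the 6 passed at any of these time points. Of all genes tested with edgeR, 2 (0.0166%) passed at ZT 8 and 0 (0%) at each of the others. In the same order, unadjusted p-values under 0.05 were found for 480, 302, 1411 and 875 genes, and DESeq2 called 13, 0, 30 and 3 genes. At ZT 0, Scd1 passed with DESeq2 (adjusted p = 0.0124) and in a fit of the 6 libraries of ZT 0 alone (adjusted p = 0.0352). The diet difference of Scd1 was not shown to vary over time, with an interaction p of 0.229 (adjusted p = 0.900). With edgeR, 0 of 12023 genes (0%) had an interaction, against 728 at an unadjusted p under 0.05 and 5 by DESeq2, none of them among the 6.

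**Figure D2:**
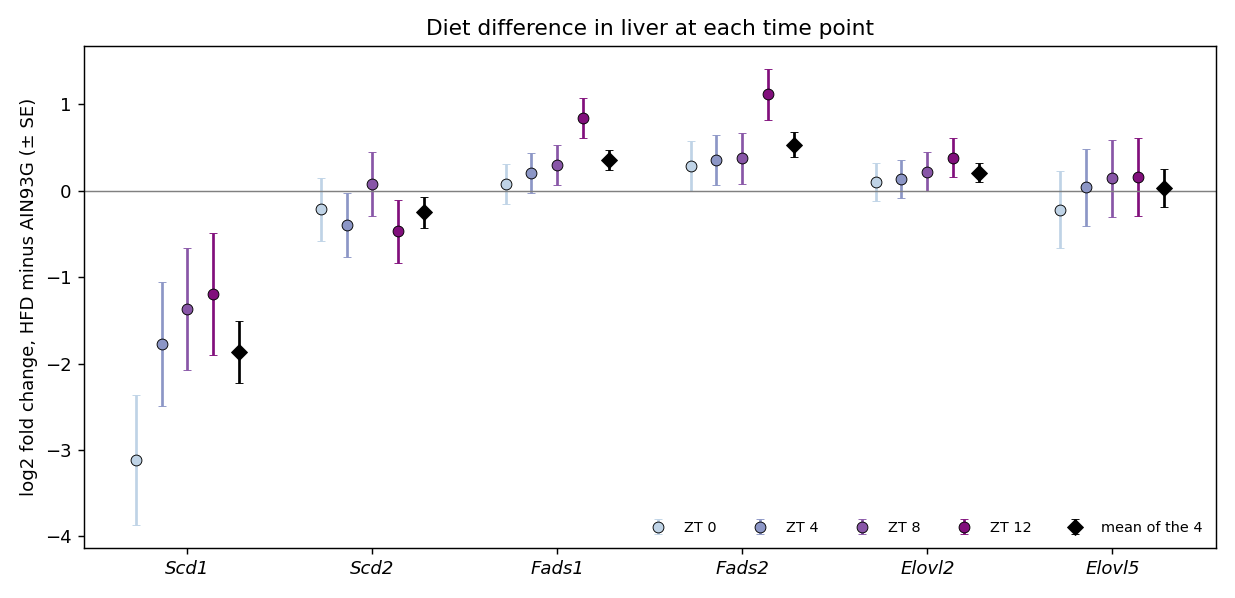
The log2 fold change between diets (HFD minus AIN93G) with its standard error for 6 genes in liver, from 3 libraries per diet at each time point, and the mean of the 4 time points as a diamond. Scd1 lies below 0 at each time point, from -3.12 at ZT 0 to -1.20 at ZT 12, and Fads2 lies above 0, up to 1.12 at ZT 12.

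Fads2 and Fads1, the delta-6 and delta-5 desaturases, had higher means on the HFD at each of the 4 time points without an adjusted p-value under 0.05. Fads2 was 363, 445 and 611 CPM on AIN93G and 638, 826 and 1602 CPM on the HFD at ZT 12, where the diets did not overlap, as was so for 10.2% of all genes tested. At the earlier time points they did. At ZT 0 it was 383, 456 and 566 CPM on AIN93G and 489.7, 513 and 713 CPM on the HFD. At ZT 4 it was 344, 411 and 500.3 CPM on AIN93G and 472, 547 and 584 CPM on the HFD, and at ZT 8 it was 558, 581 and 693 CPM on AIN93G and 649, 799.9 and 906 CPM on the HFD. The mean log2 fold change of Fads2 was 0.53 (SE 0.15, adjusted p = 0.170), and that at ZT 12 was 1.12 (SE 0.30, adjusted p = 0.5998). For the mean, Fads2 passed with DESeq2 (adjusted p = 0.0410) and with edgeR when AIN93G replicate 1 of ZT 12 was left out (log2 fold change 0.59, adjusted p = 0.0393).

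Fads1 was 610.1, 613 and 725 CPM on AIN93G and 887, 998 and 1588 CPM on the HFD at ZT 12, again without overlap, and overlapped at ZT 0, ZT 4 and ZT 8. Its log2 fold change was 0.84 (SE 0.23, adjusted p = 0.5998) at ZT 12 and 0.36 (SE 0.12, adjusted p = 0.283) for the mean. The highest library of both Fads genes at ZT 12 was replicate 2 of the HFD. Without it the log2 fold change at ZT 12 was 0.64 for Fads2 and 0.55 for Fads1, and that of Scd1 was -2.01. Without AIN93G replicate 3 of ZT 12, that of Scd1 was -0.42.

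The elongases and Scd2 did not pass in any comparison between diets in liver. Elovl2 was 808 to 1429.7 CPM on AIN93G and 852 to 1881 CPM on the HFD over ZT 0 to ZT 12, with a mean log2 fold change of 0.21 (SE 0.11, adjusted p = 0.619). Elovl5 was 203 to 1478 CPM on AIN93G and 328 to 1383 CPM on the HFD, with a mean log2 fold change of 0.03 (SE 0.22, adjusted p = 0.982). The ranges of both elongases overlapped between diets at each of the 4 time points. Scd2 was 4.58 to 12.1 CPM on AIN93G and 4.00 to 12.2 CPM on the HFD, with a mean log2 fold change of -0.25 (SE 0.18, adjusted p = 0.747). It had 1 time point without overlap, ZT 4, at 7.83 to 8.33 CPM on AIN93G and 4.00 to 7.35 CPM on the HFD, where 7.59% of all genes did not overlap.

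The next comparisons asked how the genes varied with time within each diet. In AIN93G liver 99 genes (0.823%) changed over ZT 0 to ZT 12, and in HFD liver 634 genes (5.27%) changed over ZT 0 to ZT 20, with none of the 6 genes among either. On the HFD, Scd1 was 668, 1767 and 2235 CPM at ZT 4, its lowest mean, and 1860.0, 4238 and 10104 CPM at ZT 12, its highest. At ZT 16 it was 2566, 2665 and 10324 CPM, and at ZT 20 it was 1957, 2702 and 4569 CPM. The mean at ZT 12 was 3.47-fold that at ZT 4, but the libraries of these groups overlapped and the adjusted p for time was 0.228. A 24 h cosine on the log2 scale, fitted as a description, had an amplitude of 0.88 (SE 0.28) for Scd1 with its peak at 14.6 h.

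Fads1 and Fads2 followed a like course on the HFD. Fads1 averaged 682 ± 98.6 CPM (SD, n = 3) at ZT 4 and 1158 ± 377 CPM at ZT 12, and Fads2 averaged 534 ± 57.0 CPM and 1022 ± 511 CPM. The fitted amplitudes were 0.36 (SE 0.10) for Fads1 and 0.41 (SE 0.13) for Fads2, with peaks at 14.3 h and 12.5 h. The adjusted p-values for time were 0.132 and 0.141 with edgeR and 0.0451 and 0.0465 with DESeq2. Fads2 also passed with edgeR when HFD replicate 3 of ZT 12 was left out (adjusted p = 0.0493). On AIN93G, where liver libraries end at ZT 12, the means of Fads1 stayed between 594 and 711 CPM and those of Fads2 between 418 and 611 CPM (adjusted p for time 0.932 and 0.802).

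Elovl5 had its highest mean at ZT 0 in both diets. On AIN93G it was 944, 989 and 1478 CPM at ZT 0, 526, 690.2 and 708 CPM at ZT 4, and 434, 587 and 656 CPM at ZT 8. On the HFD it was 813, 902 and 1215 CPM at ZT 0, 616, 672 and 683 CPM at ZT 4, and 573, 631 and 635 CPM at ZT 8. In both diets each library of ZT 0 exceeded each library of ZT 4 and ZT 8, and 1.36% of all genes tested were set apart in this way in both diets, in the same direction. This split was not tested. On the HFD, Elovl5 was 369, 494 and 937 CPM at ZT 16 and 520, 948 and 1026 CPM at ZT 20. Both groups overlapped ZT 0. At ZT 12 the libraries scattered from 203 to 1147 CPM on AIN93G and from 328 to 1383 CPM on the HFD, with replicate 1 the lowest in both diets. The adjusted p for time was 0.625 on AIN93G and 0.679 on the HFD. The amplitude on the HFD was 0.25 (SE 0.18) over ZT 0 to ZT 20 and 0.43 (SE 0.17) without ZT 12, with the peak at 23.4 h and 23.6 h. The single liver libraries of ZT 24, which were not fitted, held the lowest Elovl5 of each diet, 197 CPM on AIN93G and 312 CPM on the HFD, against at least 944 and 813 CPM at ZT 0. Elovl2 and Scd2 had adjusted p-values for time of 0.761 and 0.838 on AIN93G and of 0.535 and 0.944 on the HFD.

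**Figure D3:**
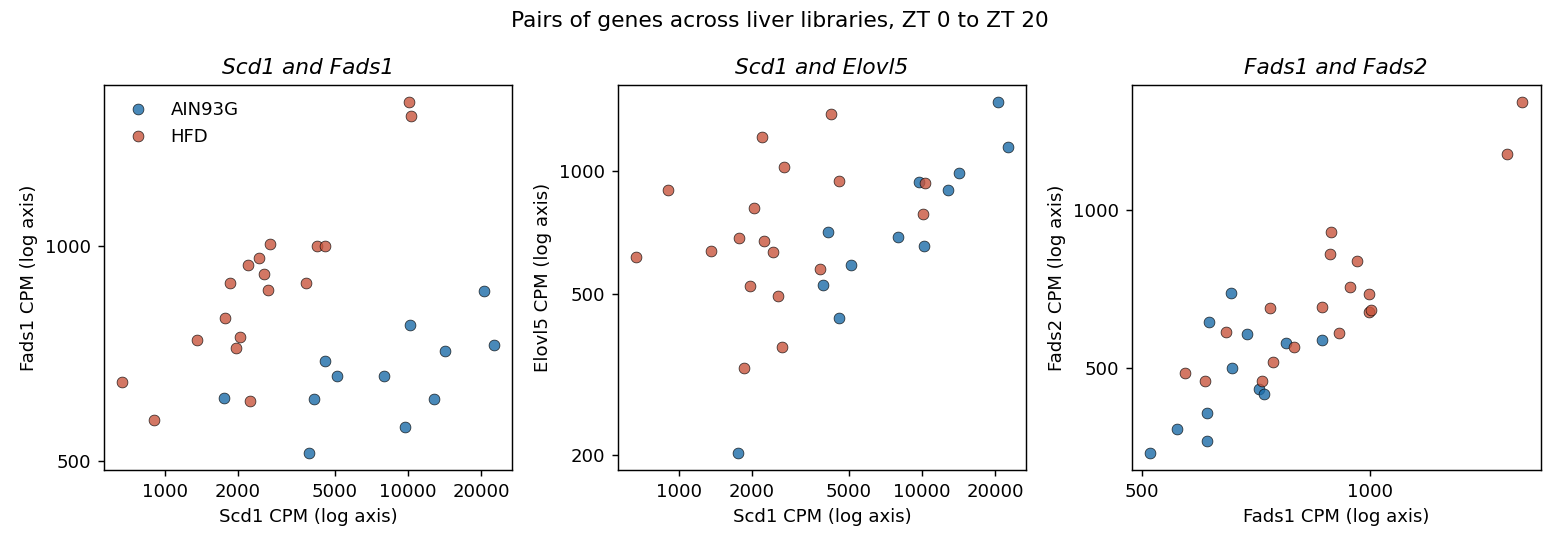
CPM (log axes) of 3 pairs of genes, 1 point per liver library, with 12 AIN93G libraries of ZT 0 to ZT 12 and 18 HFD libraries of ZT 0 to ZT 20. Scd1 and Fads1 rise together on the HFD (r = 0.89), and Scd1 and Elovl5 rise together on AIN93G (r = 0.92).

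The 6 genes were then compared with each other across libraries within each diet, on log2 CPM, as 30 relations with permutation p-values. The libraries of a diet share time points and groups of 3, so that r describes both. The permutations moved libraries freely across time points. Their p-values therefore do not separate a shared course over time from a relation within groups. The share of all gene pairs with such r was not computed. On the HFD, Scd1 and Fads1 correlated at r = 0.893 over 18 libraries (p = 1e-05, the smallest that the permutations can give, adjusted p = 0.0003, rho = 0.837, p = 2e-05, adjusted p = 0.0006). Without the 2 libraries farthest from the median of Scd1, r was 0.761, and without ZT 12 it was 0.860. Fads1 and Fads2 correlated at r = 0.880 on the HFD (permutation p = 3e-05, adjusted p = 0.00045, rho = 0.728, p = 0.00103, adjusted p = 0.0103), and r was 0.691 without the 2 farthest libraries. Scd1 and Fads2 had r = 0.752 on the HFD (permutation p = 0.00053, adjusted p = 0.00318, rho = 0.562, p = 0.0171, adjusted p = 0.0652), which fell to 0.411 without the 2 farthest libraries and so rests on them. Without ZT 12 the r of this pair was 0.719. On AIN93G, Scd1 had r = 0.572 with Fads1 and -0.209 with Fads2 over 12 libraries (permutation p = 0.0519 and 0.515, adjusted p = 0.142 and 0.552). The rho of these pairs was 0.650 and -0.126 (permutation p = 0.0255 and 0.703, adjusted p = 0.0849 and 0.782).

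On AIN93G, Scd1 correlated with Elovl5 at r = 0.921 (permutation p = 6e-05, adjusted p = 0.0006, rho = 0.867, p = 0.0006, adjusted p = 0.009), and r was 0.870 without the 2 farthest libraries and 0.867 without ZT 12. On the HFD the same pair had r = 0.264 (permutation p = 0.288, adjusted p = 0.437, rho = 0.321, p = 0.192, adjusted p = 0.338). Also on AIN93G, Scd2 had r = 0.736 with Scd1 (permutation p = 0.00675, adjusted p = 0.0253, rho = 0.685, p = 0.0174, adjusted p = 0.0652) and r = 0.761 with Elovl5 (permutation p = 0.00317, adjusted p = 0.0136, rho = 0.741, p = 0.00794, adjusted p = 0.0397). Without the 2 farthest libraries these were 0.584 and 0.739, and without ZT 12 they were 0.531 and 0.729. The part of misassigned Scd1 reads in the r of Scd1 with Scd2 was not tested. Without ZT 12, the r of Scd1 with Fads1 was 0.685 on AIN93G. Elovl2 and Elovl5 correlated in both diets, at r = 0.780 on AIN93G (permutation p = 0.00155, adjusted p = 0.00775, rho = 0.755, p = 0.00655, adjusted p = 0.0393) and r = 0.759 on the HFD (permutation p = 0.00027, adjusted p = 0.00202, rho = 0.672, p = 0.00297, adjusted p = 0.0223). Without the 2 farthest libraries r was 0.549 and 0.619. Whether any r differed between diets was not tested. The 3 genes most like each member, by r pooled over all 30 liver libraries of both diets, were for Scd1 Me1 (r = 0.924), Acaca (0.887) and Pnpla3 (0.879), which serve fatty acid synthesis or lipid droplets. For Fads1 they were Fads2 (0.869), Ces1e (0.816) and Tspan31 (0.765), and for Fads2 they were Fads1, Tspan31 (0.850) and the peroxisomal transporter Abcd3 (0.792). Elovl5 was most like Tfpi2 (0.864), the acyl-CoA synthetase Acsl5 (0.858) and Aqp8 (0.846), and Elovl2 most like Cfap36 (0.748), Elovl5 (0.739) and the lipid droplet gene Plin2 (0.685). Scd2 was most like Map3k3 (0.747), Acly (0.706) and Gpam (0.690). Within diets these r ranged from 0.467 to 0.951 on AIN93G and from 0.535 to 0.904 on the HFD, with Fads1 and Tspan31 at 0.467 and 0.718, and Scd2 and Gpam at 0.899 and 0.535.

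The genes around the pathway were read from 4 lists. Of 8 genes of de novo lipogenesis, which supplies the saturated fatty acids that Scd1 desaturates, 2 passed for the mean diet difference and both were lower on the HFD, as were 0.0582% of all genes. These were the acetyl-CoA carboxylase Acaca (log2 fold change -1.02, SE 0.20, adjusted p = 0.0323) and the pyruvate kinase Pklr (-0.92, SE 0.18, adjusted p = 0.0372). The list had a median log2 fold change of -0.94, against -0.002 for all genes tested. Pnpla3 was at -2.47 (adjusted p = 0.0526), Me1 at -0.96 (adjusted p = 0.0929) and the fatty acid synthase Fasn at -1.02 (adjusted p = 0.254).

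Among 21 other genes of elongation and PUFA synthesis 19 were tested and none passed, and their median was 0.10. The 2 with the most extreme values lay on opposite sides, with Elovl6, which lengthens palmitate for Scd1, at -1.38 (adjusted p = 0.0888) and Elovl3 at 1.38 (adjusted p = 0.392). Elovl4 and Elovl7 were too low to test. None of 11 regulators passed, with a median of 0.01, and Srebf1, which encodes SREBP-1c, was at -0.20 (SE 0.17, adjusted p = 0.796) and the carbohydrate-response factor Mlxipl at -0.28 (SE 0.08, adjusted p = 0.233). None of 8 genes of acyl activation and use passed, with a median of -0.07. Over time in HFD liver, Elovl6, Mlxipl and 4 genes of lipogenesis (Acacb, Thrsp, Pnpla3 and Pklr) passed, at adjusted p-values of 0.0163, 0.0255, 0.0236, 0.0013, 0.0403 and 0.0310, where 5.27% of all genes passed.

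**Figure D4:**
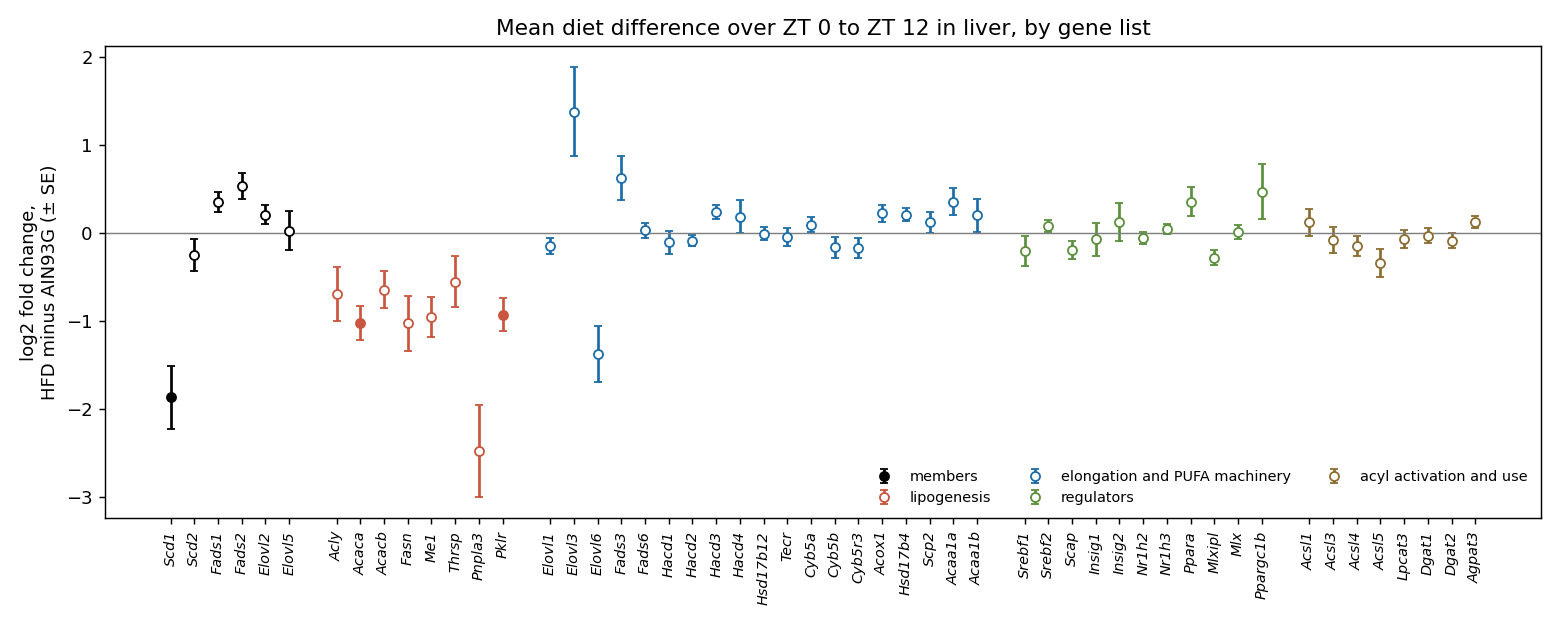
Mean log2 fold change between diets (HFD minus AIN93G) over ZT 0 to ZT 12 in liver with its standard error, for the 6 genes tested and the tested genes of 4 lists. Filled points have an adjusted p-value under 0.05, which are Scd1, Acaca and Pklr, all lower on the HFD.

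Promoter sequences of RefSeq (GRCm38.p6), 250 bases before to 50 after the start, were at hand for Scd3, Scd4, Fads2, Elovl2 and Elovl5, and not for Scd1, Scd2 and Fads1. They were searched on both strands for 7 motifs, namely the sterol response element TCACNCCAC, the NF-Y box CCAAT, the E-box CACGTG of clock and carbohydrate-response factors, the D-box TTATGTAA, the ROR site AGGTCA, and the LXR DR4 and PPAR DR1 elements, which repeat the ROR site with 4 bases or 1 base of any kind between. Elovl5 was the only 1 of the 5 with any match, and its 250 bases before the start (chr9:77917115-77917364, plus strand) are shown with the matches in capitals.
Elovl5: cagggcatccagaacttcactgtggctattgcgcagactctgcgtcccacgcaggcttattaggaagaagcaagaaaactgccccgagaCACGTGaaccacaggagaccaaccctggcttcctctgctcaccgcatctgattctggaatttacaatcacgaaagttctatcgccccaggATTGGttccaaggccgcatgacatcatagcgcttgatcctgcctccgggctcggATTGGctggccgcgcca
The E-box lies at position -161 and the NF-Y boxes, read on the opposite strand as ATTGG, at positions -71 and -17. Of 32851 promoters of this length, 7.15% hold the E-box, 37.4% the NF-Y box, 16.3% the ROR site, 1.24% the sterol response element, 0.938% the D-box, 0.0152% the DR4 and 0.0396% the DR1. A match is a run of letters and not a shown site, and windows without a match say nothing of the factors.

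The adipocyte-rich libraries had another set of these genes. By CPM of the library total, the scale used where both kinds are set side by side, Scd1 was higher in adipocyte-rich libraries within each diet. Its median on AIN93G was 52481 CPM in 8 adipocyte-rich and 7652 CPM in 13 liver libraries (6.86-fold), and on the HFD it was 17656 CPM in 2 adipocyte-rich and 2291 CPM in 19 liver libraries (7.71-fold). It did not overlap within either diet, as was so for 51.3% of 13394 genes on AIN93G and 67.3% on the HFD, and it overlapped when diets were pooled. Scd2 was 133-fold higher on AIN93G (1006 and 7.56 CPM) and 30.7-fold higher on the HFD (208 and 6.78 CPM). In contrast, Fads1 was 5.46-fold and 8.69-fold, Elovl5 5.36-fold and 6.01-fold and Fads2 29.98-fold and 39.8-fold higher in liver on AIN93G and the HFD. None of these 4 genes overlapped between all 10 and all 32 libraries, and nor did 43.8% of the 13394 genes. Elovl2 had a median of 1193 CPM in liver and 54 reads in all 10 adipocyte-rich libraries together, at most 15 in one. Scd3 had 91 and Scd4 55 reads in the 10 libraries, and Scd1 held 94.8 to 99.1% of Scd counts on AIN93G. Per kilobase, Scd1 had the highest median (9158 CPM) and Scd2 the next (162 CPM), above Fads1 (34.6 CPM) in 10 of 10 libraries, and Fads1 was above Elovl5 (33.8 CPM) in 5 of 10.

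**Figure D5:**
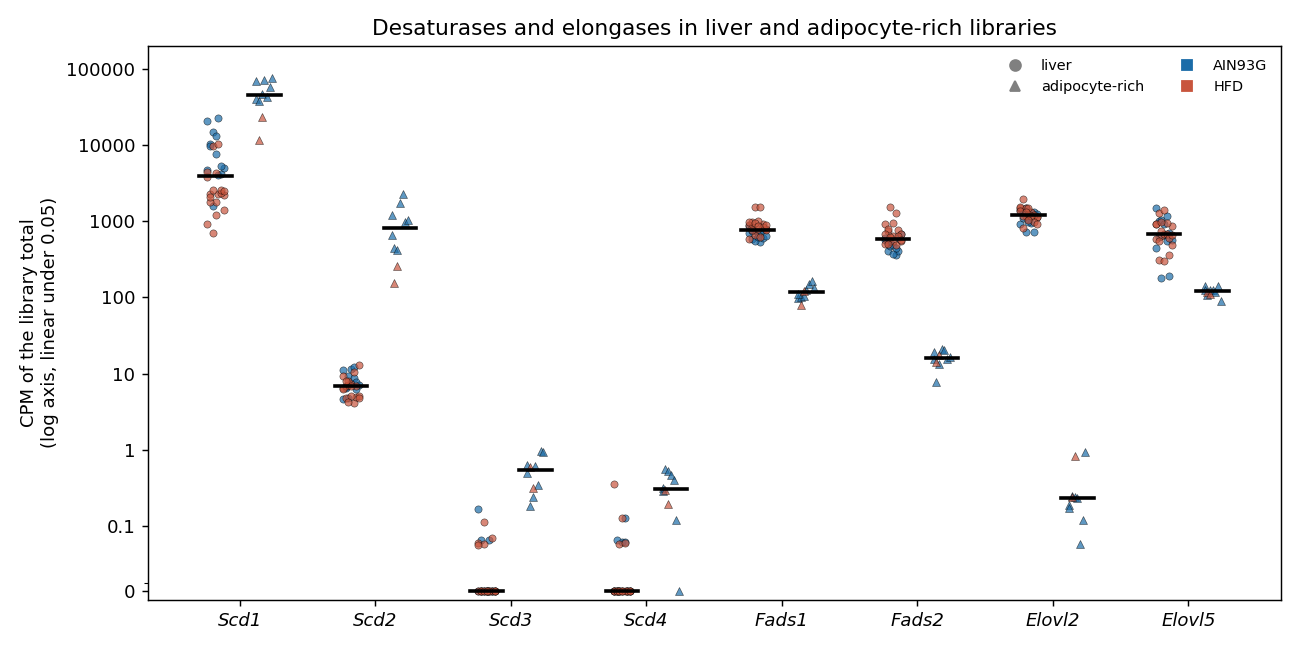
CPM of the library total (log axis, linear under 0.05) of the 8 genes, 1 point per library, with circles for 32 liver and triangles for 10 adipocyte-rich libraries, blue for AIN93G, red for the HFD, and bars at medians. Within each diet Scd1 and Scd2 lie higher in adipocyte-rich libraries, and Fads1, Fads2, Elovl2 and Elovl5 lie higher in liver.

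At ZT 24 both diets had 2 adipocyte-rich libraries. Scd1 was 74959 and 89674 CPM (TMM scale) on AIN93G and 10061 and 22653 CPM on the HFD, and Scd2 was 717 and 1212 CPM on AIN93G and 132 and 252 CPM on the HFD. Neither gene overlapped between diets, and nor did 40.8% of all genes tested. The log2 fold change was -2.33 for Scd1 (SE 0.53) and -2.33 for Scd2 (SE 0.63), with an adjusted p of 0.381 for both with edgeR, and of 3.81e-06 and 0.0051 with DESeq2. For Scd1 it was -3.05 without HFD replicate 2 and -1.90 without HFD replicate 1, and for Scd2 it was -2.89 without HFD replicate 2 and -1.90 without AIN93G replicate 1. Of 14071 genes, 0 (0%) passed with edgeR, 1675 had an unadjusted p under 0.05 and DESeq2 called 285. Fads1 was at -0.57 (SE 0.27, adjusted p = 0.431), Fads2 at -0.47 (SE 0.33, adjusted p = 0.541) and Elovl5 at -0.22 (SE 0.19, adjusted p = 0.620).

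The marker sums of these 4 libraries were as follows. The summed level of 6 brown adipocyte markers was 173 and 1055 CPM on AIN93G and 1147 and 1527 CPM on the HFD, that of 7 mammary epithelial markers was 286 and 384 against 910.2 and 931 CPM, and that of 4 keratinocyte markers was 22.8 and 43.7 against 70.7 and 118 CPM. In liver libraries the mammary sum was 217 to 361 CPM on AIN93G and 191 to 357 CPM on the HFD. The summed level of 10 adipocyte markers was 29455 and 35564 CPM on AIN93G and 29721 and 35831 CPM on the HFD. The sum of 6 lymphocyte markers was 2.03 and 3.52 CPM on AIN93G and 3.70 and 388 CPM on the HFD, that of 6 fibroblast markers was 3872 and 4856 against 4319 and 10046 CPM, that of 4 macrophage markers was 115 and 132 against 90.6 and 305 CPM, and that of 10 hepatocyte markers was 775 and 1013 against 978 and 1388 CPM. All 10 adipocyte markers, 6 of 6 brown adipocyte, 5 of 7 mammary and 3 of 4 keratinocyte markers were over 1 CPM in both HFD libraries. In each of the 8 adipocyte-rich AIN93G libraries, 10 adipocyte, 5 brown adipocyte, 5 mammary and 0 keratinocyte markers were over 1 CPM throughout. Among milk protein genes, Wap was at 0 in both HFD libraries. Csn2 had 9 and 40 reads in them, and 0 and 4 reads in the AIN93G libraries of ZT 24. The part of this in the values of Scd1 and Scd2 was not tested.

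Over time in adipocyte-rich AIN93G libraries, Scd1 was 35147, 36310.4 and 45579.5 CPM at ZT 16, 42997, 61775 and 77261 CPM at ZT 20, and 74959 and 89674 CPM at ZT 24. Scd2 was 397, 413 and 1095 CPM at ZT 16, 1049, 1875 and 2342 CPM at ZT 20, and 717 and 1212 CPM at ZT 24. The adjusted p for time was 0.537 for Scd1, 0.525 for Scd2, 0.524 for Fads1, 0.524 for Fads2 and 0.738 for Elovl5, and 5 genes in all (0.0355%) passed. Fads1 was 88.1 to 99.1 CPM at ZT 16 and 133 to 176 CPM at ZT 20, and Fads2 was 7.29 to 13.9 CPM and 16.7 to 22.8 CPM, each without overlap between these time points, as was so for 16.3% of all genes tested. At ZT 24, Fads1 was 121 and 154 CPM and Fads2 was 19.3 and 21.2 CPM. The summed lymphocyte markers ranged from 0.984 to 650.2 CPM at ZT 16 and from 2.29 to 147 CPM at ZT 20. The brown adipocyte sum ranged from 77.0 to 795 and from 146 to 992 CPM, the mammary sum from 274 to 434 and from 62.4 to 644 CPM, and the keratinocyte sum from 14.02 to 31.999 and from 7.86 to 49.2 CPM. Their part in these values was not tested.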

How the data were processed

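RNA was extracted from tissue labelled liver, and poly(A) libraries were sequenced at a commercial facility. The authors deposited 1 table of raw read counts per gene, 54532 genes by 42 libraries, and the values were used as deposited counts. The submitters' processing notes name fastp, STAR, HTSeq (0.6.1), DESeq, STAR-Fusion and mm10, and whether counting used strand is not given in the sources used here.

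Libraries were grouped by diet and time from the labels and by kind from Alb (10000 CPM). Genes averaging 25 or more counts per library fitted entered the quasi-likelihood test of edgeR (4.0.16, R 4.3.3) after TMM scaling, with group means over 30 liver libraries of ZT 0 to ZT 20 (10 groups) or over 10 adipocyte-rich libraries (4 groups). P-values were adjusted by Benjamini-Hochberg over all genes tested. SE is the log2 fold change divided by the root of F. The single liver libraries of ZT 24 were not fitted. Correlations used 100000 two-sided permutations. Alternatives were DESeq2 (1.42.0), limma-voom (3.58.1), scaling by library size, a total count of 25 as filter, fits of fewer libraries, and each library left out. Scripts were tested on simulated data. Table coordinates equalled those of GENCODE M21 for 3 of the 8 genes and were printed as deposited. Scd coding sequences were aligned with mafft.

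The members and lists were chosen with earlier results of these data known. 1 gene of the lipogenesis list is not reported here and was left out of the list's count and median. Named genes are the members, the lists, markers of cell types, and the 3 genes most correlated with each member in liver. Nothing says that samples of a group were processed apart beyond being separate mice. The floor of 3 reads covers counting error only, whereas each SE also holds the spread between libraries.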

Additional observations from a re-analysis of the deposited data

How the results depend on the processing

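With edgeR, 1 of the 6 genes tested in liver passed for the mean diet difference and none in the other 9 comparisons. DESeq2 gave 2 for the mean, 1 at ZT 0, 2 for time in HFD liver and 2 between diets in adipocyte-rich libraries. A fit of the 6 libraries of ZT 0 gave 1 there. Without the ZT 12 libraries labelled light phase the mean gave 0 and time in HFD liver gave 1. Leaving out 1 library gave 0 to 2 for the mean, 0 to 1 for time in HFD liver and 0 for the other 8 comparisons. The log2 fold change of Scd1 for the mean stayed between -2.09 and -1.82 over 6 alternatives and between -2.07 and -1.67 over left-out libraries. No call of a gene reversed. The counts over all genes moved more. For the mean, DESeq2 gave 83 genes, scaling by library size 22, the fit of ZT 0 to ZT 12 alone 22, the fit without ZT 12 64 and that without the libraries labelled light phase 7, against 12, and left-out libraries gave 5 (AIN93G replicate 2 of ZT 12) to 183 (AIN93G replicate 1 of ZT 12). For time in AIN93G liver the alternatives gave 6 to 437 genes and left-out libraries 12 to 282, against 99. For time in HFD liver they gave 427 to 1658 and 330 to 1176, against 634. Between diets at ZT 12, 107 genes passed without AIN93G replicate 1, against 0, and at ZT 8 alternatives and left-out libraries gave 0 to 30, against 2. In adipocyte-rich libraries DESeq2 called 285 genes between diets and 286 over time, against 0 and 5. The cause of these shifts was not tested. Replicate numbers were given in accession order and pair no samples. The sample titles share 8 numbers among 18 samples of different time points, 0 of them between diets, and the labels do not say what the number marks. As a fixed block in liver it leaves 0 residual degrees of freedom within each diet. A limma-voom fit chosen after seeing the data, with this number as a replicate block at an estimated correlation of 0.0159, called 0 of the 6 genes in each of the 8 liver comparisons, and so did limma-voom without the block (for Scd1 and the mean, adjusted p = 0.0524 and 0.0511). Over all genes both gave 4 for the mean, 20 with and 17 without the block for time in AIN93G liver, and 680 and 679 for time in HFD liver.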

Other observations

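At ZT 24 each diet had 1 liver library, labelled dark phase, which entered no test. Elovl5 was 197 CPM on AIN93G and 312 CPM on the HFD, lower than in every other liver library of the same diet, where the lowest were 203 CPM and 328 CPM in replicate 1 of ZT 12. Scd1 was 5573 CPM on AIN93G and 1267 CPM on the HFD, Fads2 was 637 and 991.6 CPM, Fads1 was 792 and 904 CPM, and Elovl2 was 764 and 1084 CPM. In replicate 1 of ZT 12, Scd1 was 1756 CPM on AIN93G and 1860.0 CPM on the HFD, and Elovl2 was 808 and 852 CPM. With 1 library per diet the values have no replicate check.

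On the HFD, replicate 2 of ZT 12 and replicate 1 of ZT 16 held the highest values of Scd1 (10104 and 10324 CPM), Fads1 (1588 and 1519 CPM) and Fads2 (1602 and 1276 CPM) among the 18 liver libraries of ZT 0 to ZT 20, while Elovl5 in them was 787 and 937 CPM.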
